A study of Mus musculus with 72 samples.

Results

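Liver RNA was compared between DBA/2J mice fed a Medium Protein diet and DBA/2J mice fed a Control diet, with both sexes in 1 model. The comparison holds every DBA/2J library on these diets, 12 on Medium Protein and 12 on Control, out of 72 libraries in the series, and all 17812 genes with enough counts to test. The series crosses 2 inbred strains, C57BL/6J and DBA/2J, with both sexes and with the diets Control, Medium Protein and Low Protein, which gives 12 groups of 6 animals and 1 liver library per animal. The 4 groups of the comparison are DBA/2J males on Medium Protein, DBA/2J females on Medium Protein, DBA/2J males on Control and DBA/2J females on Control. All animals began their diet at 10 weeks of age, ate it for 13 weeks and were 23 weeks old when their livers were taken, following 16 h without food, at a housing temperature of about 22 °C. The protein content of the 3 diets is not given in the sources used here. Medium Protein feeding left the liver transcriptome of DBA/2J mice without a single gene past the threshold: 0 of 17812 genes (0%) had an adjusted p below 0.05 in edgeR's quasi-likelihood test. Among the genes with the smallest p were Atox1, a copper chaperone, and Cyp3a11, an enzyme that clears foreign compounds, whose estimates were higher on Medium Protein, and Cnst, Taok3 and Mup15, whose estimates were lower.

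The liver takes up most dietary amino acids and turns their nitrogen into urea through the enzymes of the urea cycle. When an amino acid runs short, the kinase GCN2 and the transcription factor ATF4 raise genes such as Asns and Psat1, and the liver releases the hormone FGF21, a known signal of low protein intake. Fasting acts on the same organ: it favours gluconeogenesis, the burning of fatty acids under the nuclear receptor PPARα, and low synthesis of fatty acids and cholesterol. All values below therefore describe fasted livers.

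Library totals ran from 29.0 to 35.3 M counts on Medium Protein and from 26.9 to 36.3 M on Control. Levels are CPM, read counts relative to library size after TMM scaling, which corrects for differences in library composition. Summed over 12 marker genes, the hepatocyte level lay between 97520 and 121706 CPM on Medium Protein and between 90512 and 123887 CPM on Control (two-sided exact permutation test within sex, p = 0.577), so every library carried the labelled tissue. The genes of the Y chromosome Ddx3y, Eif2s3y, Kdm5d and Uty were high in all 12 males, and Xist, which shuts down an X chromosome, was high in all 12 females. Female 6 on Medium Protein held traces of the Y genes, with 2.80 CPM of Ddx3y, while the next highest female had 0.0314 CPM. Ribosomal-like RNA took at most 0.626% of the counts on Medium Protein, in male 6, and 3.42% in Control male 4, the highest of the 24 libraries. Without Control male 4 and Medium Protein female 6 the pooled comparison again gave 0 called genes. Codes in the labels that read like plate positions run in the order of the groups, so position and diet cannot be told apart.

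The pooled comparison tested each gene with sex as a blocking factor. The smallest adjusted p was 0.624, and 749 genes (4.21%) had an unadjusted p below 0.05. Of these 749, 421 (2.36% of all genes tested) were higher and 328 (1.84%) were lower on Medium Protein. Other tools gave the same count: limma-voom called 0 genes, with 784 below an unadjusted p of 0.05, and DESeq2 called 0, with 767. The smallest DESeq2 adjusted p was 0.0891, reached by Cyp3a11, Taok3 and Atox1. The median log2 difference of all genes was 0.002. Of 17811 genes with an interval, 79.9% had a 95% interval inside a 1.5-fold difference in either direction and 95.3% inside a 2-fold difference. These intervals are not adjusted for the number of genes. They bound single genes and do not show how large a difference the adjusted test could have called. The common biological coefficient of variation, which measures how much animals of a group differ, was 0.181. On the first principal component, which held 8.59% of the variance, Medium Protein and Control libraries did not separate (two-sided exact permutation test within sex, p = 0.922). Diet accounted for 4.42% of the variance over all genes, against 4.55% for an arbitrary split with 1 of the 22 degrees of freedom left after sex.

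**Figure D1:**
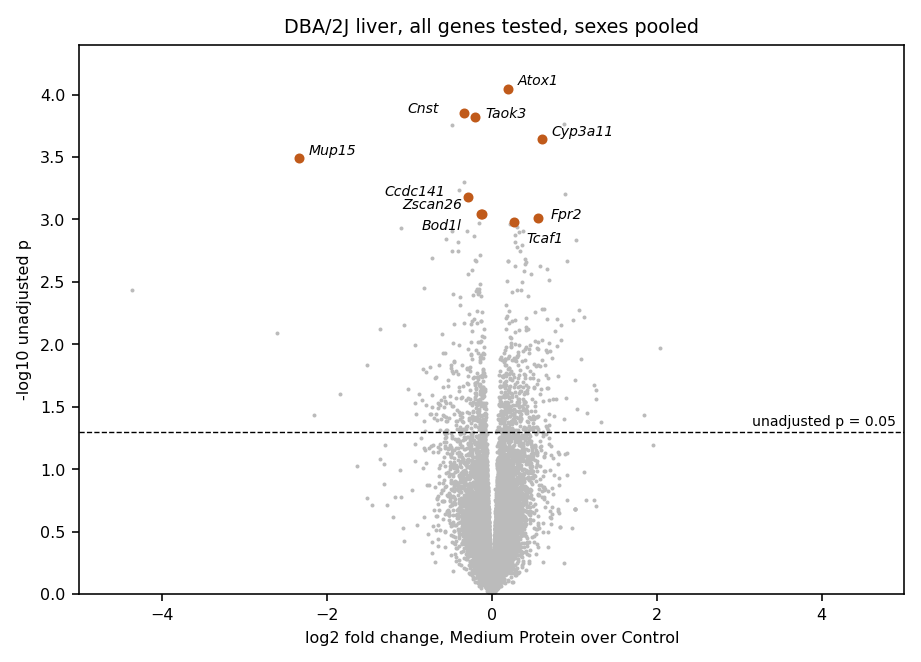
Log2 difference of Medium Protein over Control (x axis) against the negative log10 of the unadjusted p (y axis) for the 17812 genes tested in 24 DBA/2J libraries; each point is a gene, the 10 labelled genes are those described first in the text, and the dashed line marks an unadjusted p of 0.05. No gene reaches an adjusted p below 0.05, and the labelled genes differ by less than 2-fold, apart from Mup15.

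The 10 genes described first had the smallest p among genes whose mean log2 CPM was 0 or more, a symbol that is not a predicted or clone name, and the same sign in both sexes. The smallest p of all belonged to Atox1 (ENSMUSG00000018585), which encodes a chaperone that hands copper to export pumps. In females it stood at 25.6 to 30.1 CPM (median 27.5) on Medium Protein, against 20.3 to 23.8 CPM (median 22.7) on Control, and the groups did not overlap. In males it stood at 34.6 to 39.97 CPM (median 36.6) on Medium Protein, against 33.2 to 37.7 CPM (median 34.01) on Control, and the ranges overlapped. The pooled log2 difference was 0.20 ± 0.043 (standard error, SE) and did not pass (n = 12 each, p = 8.93e-05, adjusted p = 0.624 by edgeR's quasi-likelihood test). Females alone had 0.31 ± 0.053, with an adjusted p of 0.0768.

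Cnst and Taok3 came next, both lower on Medium Protein. Cnst (ENSMUSG00000038949) encodes consortin, which helps carry gap junction proteins to the cell surface. Its level in males was 7.80 to 9.28 CPM (median 8.48) on Medium Protein, against 10.1 to 14.02 CPM (median 11.5) on Control, without overlap. In females it was 17.7 to 22.1 CPM (median 20.6) on Medium Protein, against 18.3 to 32.9 CPM (median 22.96) on Control, with overlap. The pooled difference was -0.34 ± 0.077 (p = 0.00014, n = 12 each). Taok3 (ENSMUSG00000061288), a stress-responsive protein kinase, had 46.4 to 53.6 CPM (median 51.6) in Medium Protein males, against 52.8 to 68.1 CPM (median 59.01) in Control males. In females it had 68.4 to 85.4 CPM (median 79.1) on Medium Protein, against 81.4 to 92.7 CPM (median 88.8) on Control. Its ranges overlapped at their edges in both sexes, and the pooled difference was -0.20 ± 0.046 (p = 0.000152, n = 12 each). The adjusted p of Cnst and of Taok3 was 0.624.

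Bod1l and Zscan26 had small differences with a narrow spread. Bod1l (ENSMUSG00000061755) encodes a protein that protects stalled replication forks. It stood at 36.2 to 42.1 CPM (median 38.6) over the 12 Medium Protein livers and at 40.3 to 45.9 CPM (median 42.8) over the 12 Control livers, a difference of -0.13 ± 0.034. The estimate was -0.13 in males and -0.13 in females. Zscan26 (ENSMUSG00000022228), a zinc finger gene, stood at 55.2 to 63.3 CPM (median 59.8) on Medium Protein and 61.3 to 67.3 CPM (median 64.7) on Control, a difference of -0.11 ± 0.03. Both missed the threshold, with an adjusted p of 0.903.

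Ccdc141 (ENSMUSG00000044033), a coiled-coil gene known from the migration of neurons, differed mainly in males. Male livers held 17.9 to 22.6 CPM (median 19.2) on Medium Protein and 22.7 to 30.9 CPM (median 27.9) on Control, ranges that met without overlap. Female livers held 22.7 to 31.99 CPM (median 30.04) on Medium Protein and 26.2 to 35.95 CPM (median 30.4) on Control, which overlapped widely. The pooled difference was -0.29 ± 0.074 (adjusted p = 0.903), the male difference -0.47 ± 0.093 (adjusted p = 0.137) and the interaction with sex had an unadjusted p of 0.00957. Fpr2, a receptor for formyl peptides on phagocytes, was scarce, at 0.804 to 2.06 CPM (median 1.04) on Medium Protein and 0.571 to 1.34 CPM (median 0.831) on Control, with a difference of 0.56 ± 0.15. Tcaf1, a partner of the cold channel TRPM8, had 2.83 to 4.08 CPM (median 3.61) on Medium Protein and 2.48 to 3.70 CPM (median 2.91) on Control, with a difference of 0.27 ± 0.074. Neither passed (adjusted p = 0.903 for both).

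Mup15 (ENSMUSG00000096674), also among these 10 genes, belongs to the major urinary proteins, pheromone carriers made by the liver, mainly of males. Its Medium Protein males held 34.7 to 73.9 CPM (median 45.3), against 35.8 to 633 CPM (median 98.8) in Control males. A few high Control males drew the difference apart while the lowest values were alike, and female livers had 0 counts apart from 1 Control female. The difference was -2.34 ± 0.56 (adjusted p = 0.825). Mup genes are near-identical copies, so their reads can be divided among copies and the value of any single Mup gene is uncertain.

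**Figure D2:**
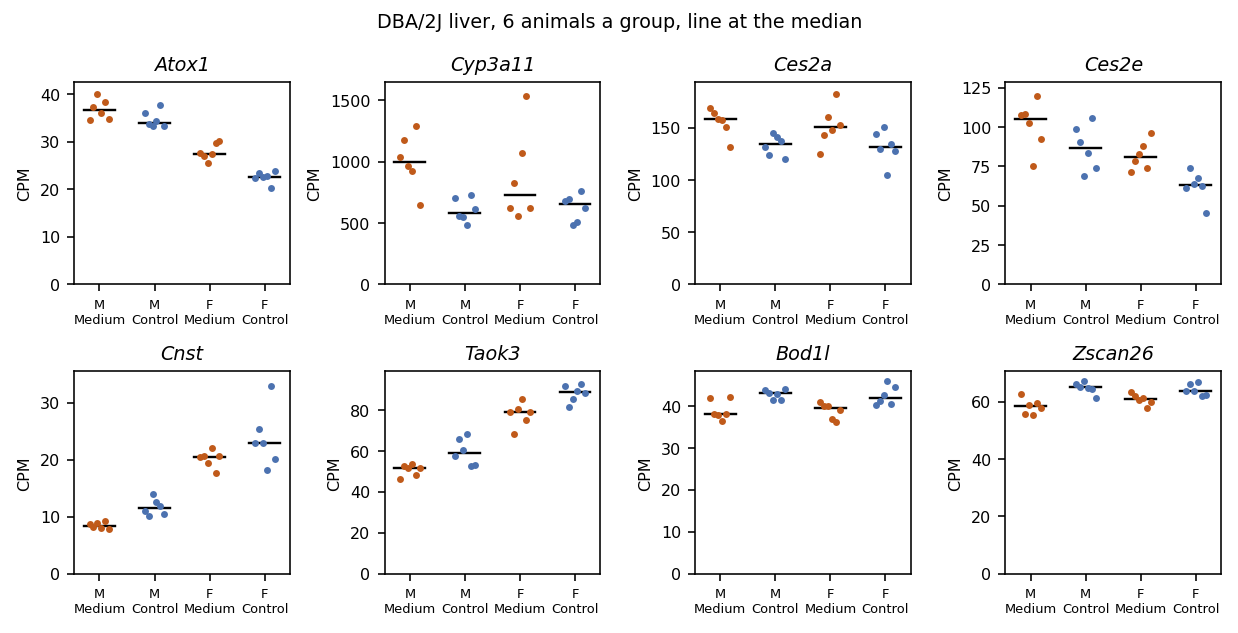
CPM (y axis) of 8 genes in each of the 24 DBA/2J livers, with males and females in separate columns and Medium Protein left of Control; points are animals and lines are group medians. Atox1 in females and Cnst in males do not overlap between the diets, and in the other panels the ranges touch or overlap in at least 1 sex.

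Of these 10 genes Cyp3a11 was the most abundant and the only one that clears foreign compounds. Cyp3a11 (ENSMUSG00000056035) encodes the main hepatic cytochrome P450 of the 3A family in mice and is a textbook target of the nuclear receptor PXR. Ces2a, Ces2e and Ces2g encode carboxylesterases, which split esters of drugs and lipids. The windows around the start sites of 3 of these genes are printed here. Their estimates lay above 0 in the comparison, without a call, and they rose on the Low Protein diet. The sequences are from RefSeq, build GRCm38.p6, from 250 bases before to 50 after the start of each gene. Capitals mark matches, on either strand, to the nuclear receptor motifs AGGTCA and AGTTCA and to CAAAGTNC, a motif that was chosen after the windows had been read; no marked motif overlaps another.
Cyp3a11, chr5:145879805-145880104, minus strand: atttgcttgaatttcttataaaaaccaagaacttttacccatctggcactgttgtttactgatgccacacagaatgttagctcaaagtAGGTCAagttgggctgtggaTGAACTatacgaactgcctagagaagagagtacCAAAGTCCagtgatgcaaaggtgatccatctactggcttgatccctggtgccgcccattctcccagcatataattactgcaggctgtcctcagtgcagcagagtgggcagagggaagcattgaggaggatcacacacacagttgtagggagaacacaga
Ces2a, chr8:104733753-104734052, plus strand: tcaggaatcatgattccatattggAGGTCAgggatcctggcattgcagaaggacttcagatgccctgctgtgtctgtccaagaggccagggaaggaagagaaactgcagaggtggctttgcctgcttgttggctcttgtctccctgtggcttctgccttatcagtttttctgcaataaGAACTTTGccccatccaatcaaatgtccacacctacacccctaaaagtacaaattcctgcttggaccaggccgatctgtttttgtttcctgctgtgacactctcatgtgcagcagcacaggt
Ces2e, chr8:104926010-104926309, plus strand: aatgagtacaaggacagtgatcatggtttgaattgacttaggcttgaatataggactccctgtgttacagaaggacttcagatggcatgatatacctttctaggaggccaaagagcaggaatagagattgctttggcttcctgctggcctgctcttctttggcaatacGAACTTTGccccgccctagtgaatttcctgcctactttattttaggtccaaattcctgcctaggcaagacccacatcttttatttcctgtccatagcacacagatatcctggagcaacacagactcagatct

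AGGTCA occurs in the Cyp3a11 window at -162 and in the Ces2a window at -226, counted from the start site to the first base of the match, and is absent from the Ces2e window. AGTTCA is present only in the Cyp3a11 window, on the reverse strand at -142. CAAAGTNC is present in all 3, at -109 in Cyp3a11 and on the reverse strand at -72 in Ces2a and at -82 in Ces2e. Among 32817 windows of the same length, 16.3% hold AGGTCA, 14% hold AGTTCA and 3.99% hold CAAAGTNC. A match of letters shows neither binding nor use.

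Cyp3a11 stood at 648 to 1289.6 CPM (median 999.9) in Medium Protein males, against 487 to 730.0 CPM (median 584) in Control males. In females it stood at 561 to 1535 CPM (median 726) on Medium Protein, against 483 to 761 CPM (median 654) on Control. Of the Medium Protein animals, 5 of 6 males and 3 of 6 females lay above every Control animal of their sex, and the rest lay within the Control range. The pooled difference was 0.61 ± 0.14, with a 95% interval of 0.31 to 0.90, and did not pass (n = 12 each, p = 0.000229, adjusted p = 0.679). Near-identical Cyp3a copies make the share of each copy uncertain. The interaction with sex had an unadjusted p of 0.382.

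The carboxylesterases showed smaller differences of the same sign in both sexes. Ces2a (ENSMUSG00000055730) had 125 to 183 CPM (median 155) on Medium Protein and 105 to 151 CPM (median 133) on Control, a difference of 0.22 ± 0.059 (p = 0.00108, n = 12 each). Ces2e had 71.5 to 119.9 CPM (median 89.99) on Medium Protein and 45.5 to 106 CPM (median 71.1) on Control, a difference of 0.30 ± 0.083. Ces2g had 20.3 to 27.5 CPM (median 22.8) on Medium Protein and 17.7 to 23.5 CPM (median 20.3) on Control, a difference of 0.18 ± 0.057. Their adjusted p lay between 0.903 and 1. Ces2e and Ces2g were chosen after their values were seen, and the Ces2 genes resemble each other in sequence. Of 34 genes of xenobiotic metabolism tested, 0 passed, 3 were higher at an unadjusted p below 0.05 and 1 was lower, and the median difference was 0.023 against 0.002 for all genes. Besides Cyp3a11 and Ces2a these were Cyp3a25, a further 3A enzyme (0.20 ± 0.077), and Ugt2b1, a glucuronosyltransferase (-0.18 ± 0.081). Among 26 targets of NRF2, the sensor of oxidative stress, 0 passed. Hmox1, which degrades heme, had 4.68 to 9.62 CPM (median 7.22) on Medium Protein and 4.68 to 7.28 CPM (median 5.62) on Control (0.33 ± 0.11).

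The genes that handle amino acid nitrogen stayed close to Control. All 9 urea cycle genes were tested, 0 passed, 7 lay above 0 and the median difference was 0.080. Cps1 (ENSMUSG00000025991), which feeds ammonia into the cycle, had 2807 to 5444 CPM (median 4035) on Medium Protein and 2778 to 5178 CPM (median 3858) on Control, a difference of 0.08 ± 0.092 with an interval of -0.11 to 0.27. Arg1, which releases urea, had 502 to 871 CPM (median 614) on Medium Protein and 381 to 805 CPM (median 604) on Control (0.10 ± 0.086). Slc25a15, the ornithine carrier of the mitochondrion, had 0.10 ± 0.059, with 268 to 391 CPM (median 312) on Medium Protein and 219.8 to 377 CPM (median 308) on Control. The ranges of the diets overlapped for all 3 genes in each sex.

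Of 51 genes of amino acid catabolism, 0 passed and 0 had an unadjusted p below 0.05, with 25 above and 26 below 0 and a median of -0.003. The member with the smallest p was Acmsd, which steers tryptophan breakdown away from NAD (-0.19 ± 0.11). The 26 genes of serine and one-carbon metabolism had a median of 0.007 and 0 below an unadjusted p of 0.05. Cbs, the first enzyme of the transsulfuration pathway, had 0.11 ± 0.072 pooled, and 0.24 ± 0.10 in males. The 23 amino acid transporters had a median of -0.009.

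The ATF4 branch gave no call. Of 31 ATF4 target genes 0 passed, 9 lay above and 22 below 0, and the median was -0.054. Asns (ENSMUSG00000029752), which makes asparagine, was scarce: Medium Protein livers held 0 to 0.864 CPM (median 0.240), against 0.0520 to 1.10 CPM (median 0.111) on Control. Its difference of 0.06 ± 0.39 has an interval of -0.75 to 0.87, so a change of less than about this width was not detectable at this level. Psat1, an enzyme of serine synthesis, was as scarce, at 0.0825 to 0.894 CPM (median 0.304) on Medium Protein and 0.0414 to 0.838 CPM (median 0.347) on Control (-0.05 ± 0.34). Trib3, a pseudokinase induced by ATF4, had 5.64 to 21.4 CPM (median 8.47) on Medium Protein and 6.19 to 17.4 CPM (median 12.6) on Control (-0.30 ± 0.17). Of the endoplasmic reticulum stress list 19 of 22 genes and of the heat shock list 15 of 18 lay below 0, with 0 of either list called. These signs came from males: the heat shock list had 18 of 18 below 0 in males (median -0.158), against 15 of 18 above 0 in females (median 0.056). The endoplasmic reticulum stress list had 20 of 22 below 0 in males, against 12 of 22 above 0 in females. Leaving out 1 animal at a time, the male median ran from -0.212 to -0.053 for heat shock and from -0.177 to -0.037 for endoplasmic reticulum stress. Both were nearest 0 without Control male 6. The female medians ran from -0.0005 to 0.093 and from -0.085 to 0.032. In the interaction with sex 0 members of either list had an unadjusted p below 0.05.

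Fgf21 (ENSMUSG00000030827) did not separate the diets. Males had 17.4 to 54.4 CPM (median 25.8) on Medium Protein, against 15.2 to 72.6 CPM (median 40.02) on Control, and females had 8.20 to 33.9 CPM (median 24.2) on Medium Protein, against 5.80 to 22.1 CPM (median 18.3) on Control. The ranges overlapped in both sexes. The pooled difference was -0.054 ± 0.26 with an interval of -0.59 to 0.49, and the estimate was -0.51 in males and 0.41 in females. Igf1, the growth factor that falls in protein deficiency, had 447 to 737 CPM (median 593) on Medium Protein and 498 to 661 CPM (median 577) on Control, a difference of 0.038 ± 0.062 whose interval of -0.089 to 0.16 is narrow. Igfbp1, a binding protein of IGF1, had 8.03 to 45.1 CPM (median 22.4) on Medium Protein and 6.21 to 158 CPM (median 23.3) on Control (-0.51 ± 0.36).

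Among the genes of energy metabolism, most glycolysis genes lay above 0 and most cholesterol genes below 0 without a call. Of 16 glycolysis genes 15 lay above 0, with a median of 0.052, and Tpi1, triosephosphate isomerase, was the only one at an unadjusted p below 0.05 (0.10 ± 0.045). By sex the glycolysis median was 0.002 in males, with 9 of 16 above 0, and 0.109 in females, with 15 of 16 above 0. The 16 gluconeogenesis genes had a median of 0.045, which was -0.019 in males and 0.053 in females. Pck1, which commits carbon to glucose and is high in fasting, had 1962 to 3537 CPM (median 2711) on Medium Protein and 1643 to 4229 CPM (median 2902) on Control (-0.14 ± 0.12).

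Of 25 cholesterol synthesis genes 22 lay below 0 with a median of -0.137, and 0 had an unadjusted p below 0.05. Their single members varied widely between animals: Dhcr7, which makes the last step to cholesterol, had 9.03 to 21.7 CPM (median 15.00) on Medium Protein and 12.1 to 23.4 CPM (median 15.1) on Control (-0.11 ± 0.13). In females 24 of the 25 lay below 0 and the median was -0.241, but it was -0.041 without Control female 3. In males the median was -0.057, and 0.077 without Control male 1. Control female 3 also held the highest Hsd17b7 of its group, 101 CPM against at most 69.2 CPM in the other 5.

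The 30 genes of fatty acid synthesis had a median of -0.029. Fads2, a desaturase of polyunsaturated fatty acids, had 190.1 to 322 CPM (median 260.2) on Medium Protein and 219 to 435 CPM (median 316) on Control (-0.20 ± 0.083). Mogat1, which makes diacylglycerol, had 0.123 to 0.849 CPM (median 0.339) on Medium Protein and 0.0301 to 0.436 CPM (median 0.282) on Control, near the limit of detection (0.68 ± 0.33). Of 27 bile acid genes 22 lay below 0 (median -0.063) and 2 had an unadjusted p below 0.05, both lower. These were Slc27a2, which activates long-chain fatty acids and bile acids (-0.11 ± 0.043), and Amacr, a racemase of branched fatty acids and bile acid precursors (-0.089 ± 0.042). Cyp7a1, which sets the pace of bile acid synthesis, had 219 to 486 CPM (median 328) in Medium Protein females, against 364 to 649 CPM (median 434) in Control females. In males it had 117 to 202 CPM (median 189) on Medium Protein, against 70.7 to 344 CPM (median 133) on Control, and the pooled difference was -0.21 ± 0.19. Elovl3, an elongase with strong daily and sex-dependent expression, had 0.26 ± 0.30.

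Nuclear and mitochondrial genes of the respiratory chain lay on opposite sides of 0. Of 74 nuclear genes of the chain 56 lay above 0, with a median of 0.027, and 5 had an unadjusted p below 0.05, all higher. Sdhd, a membrane anchor of complex II, had 135 to 167 CPM (median 149) on Medium Protein and 123 to 150.0 CPM (median 141) on Control (0.10 ± 0.039). Atp5l, a subunit of ATP synthase, had 0.11 ± 0.048. Of 79 ribosomal protein genes 64 lay above 0, with a median of 0.026, and 3 had an unadjusted p below 0.05, all higher. Among them, Rpl11, a protein of the large ribosomal subunit, had 0.09 ± 0.036.

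Of 13 protein-coding genes of the mitochondrial genome 12 lay below 0, with a median of -0.158, and 3 had an unadjusted p below 0.05, all lower. mt-Nd6 (ENSMUSG00000064368), a subunit of complex I, had 33.8 to 56.7 CPM (median 38.3) in Medium Protein males, against 43.3 to 74.97 CPM (median 64.6) in Control males, and 28.2 to 48.99 CPM (median 37.6) in Medium Protein females, against 31.9 to 67.2 CPM (median 43.9) in Control females. Its difference was -0.38 ± 0.12 (n = 12 each, p = 0.00486, adjusted p = 1). mt-Cytb, the cytochrome of complex III, had 732 to 1031 CPM (median 876) on Medium Protein and 765 to 1261 CPM (median 965) on Control (-0.17 ± 0.057). mt-Nd2, also of complex I, had -0.30 ± 0.12. Summed, these genes took 1.19 to 1.46% of the counts of a library on Medium Protein (median 1.36%) and 1.25 to 1.52% on Control (median 1.42%), which gave p = 0.0274 by a two-sided exact permutation test within sex and 0.174 after adjustment over 19 library measures. In males all 13 genes lay below 0, with a median of -0.299, and in females the median was -0.078.

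**Figure D3:**
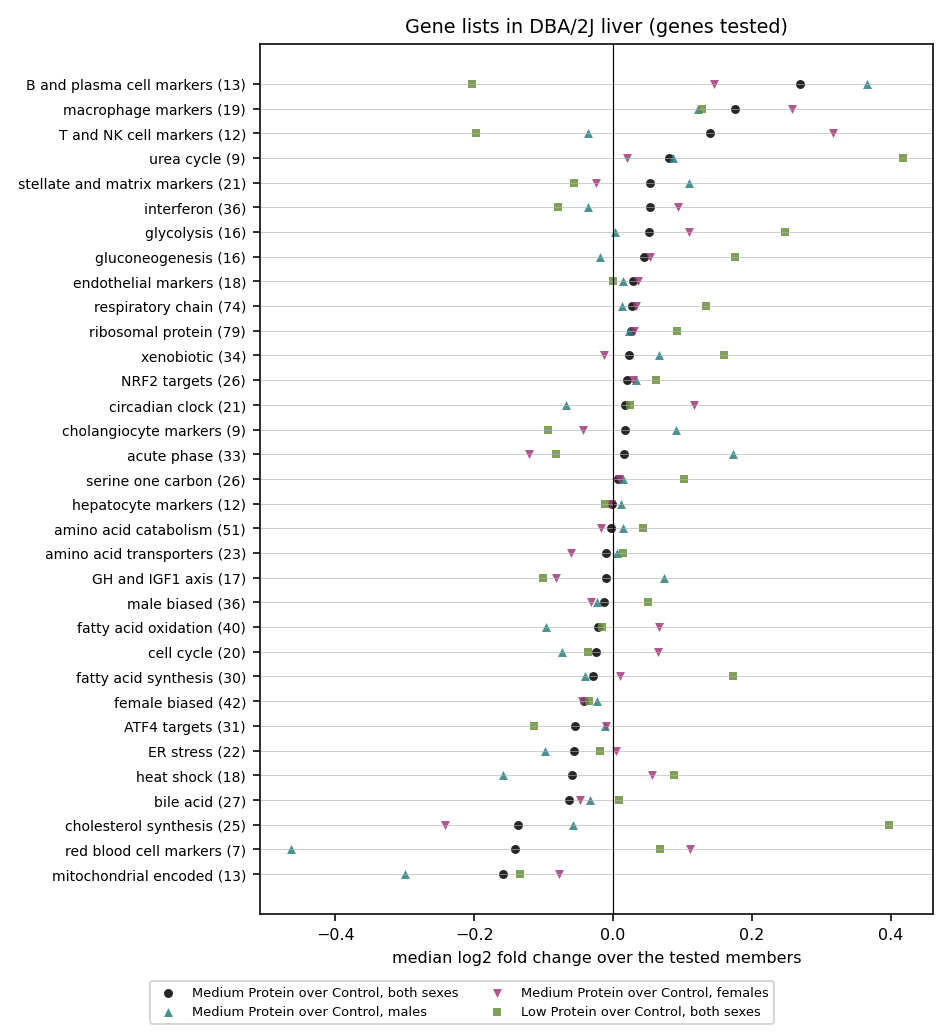
Median log2 difference of Medium Protein over Control (x axis) for each of 33 gene lists, given for both sexes together, for males and for females of DBA/2J, beside the median of Low Protein over Control; the number of genes tested stands beside each list. Acute phase and fatty acid oxidation lists lie on opposite sides of 0 in the sexes, while macrophage markers lie above and mitochondrially encoded genes below 0 in both.

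Markers of several immune and fat cells lay above 0. In bulk liver, more cells of a type and more RNA per cell cannot be told apart. Of 21 macrophage markers 19 were tested and 18 lay above 0, with a median of 0.175, and 4 had an unadjusted p below 0.05, all higher. Ccr2, the receptor that brings monocytes into tissue, had 1.17 to 2.64 CPM (median 1.89) on Medium Protein and 0.495 to 3.10 CPM (median 1.29) on Control (0.49 ± 0.19). Ctss, a lysosomal protease of phagocytes, had 19.99 to 33.7 CPM (median 23.8) on Medium Protein and 13.4 to 29.9 CPM (median 21.2) on Control (0.21 ± 0.10). The summed macrophage level was 296 to 524 CPM on Medium Protein (median 400.1) and 259 to 443 CPM on Control (median 367), with p = 0.0767 and an adjusted p of 0.291 by the exact permutation test.

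The B and plasma cell list had 3 of 13 tested genes at an unadjusted p below 0.05, all higher. Cd79a, part of the B cell receptor, was barely detected, at 0.0925 to 0.733 CPM (median 0.409) on Medium Protein and 0 to 0.379 CPM (median 0.148) on Control (1.05 ± 0.35). Sdc1, which hepatocytes also express, made up most of the summed level of this list and had 0.15 ± 0.057. That sum ran from 203 to 373 CPM on Medium Protein (median 300.2) and from 185 to 319 CPM on Control (median 259), the smallest permutation p of the 19 library measures (p = 0.00365, adjusted p = 0.0693). S100a9, a neutrophil calcium-binding protein, had 0.417 to 0.818 CPM (median 0.520) in Medium Protein females, against 0.0663 to 0.327 CPM (median 0.230) in Control females, without overlap. In males it had 0.0346 to 0.881 CPM (median 0.252) on Medium Protein, against 0.0828 to 0.523 CPM (median 0.198) on Control, and the pooled difference was 1.12 ± 0.37. Plin4, a lipid droplet protein and the only fat cell marker above the filter, had 21.04 to 58.4 CPM (median 35.6) on Medium Protein and 11.5 to 43.8 CPM (median 20.6) on Control (0.54 ± 0.20). No skeletal muscle marker and 1 pancreatic marker passed the filter, and the 12 hepatocyte markers had a median of -0.001.

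Other lists gave little. Of 36 male-biased genes 2 were higher and 2 lower at an unadjusted p below 0.05, of 42 female-biased genes 2 were lower, and the medians were -0.013 and -0.042. Trim24, a repressor of retinoic acid signalling, stood at 22.3 to 90.7 CPM (median 51.2) on Medium Protein and 20.6 to 105 CPM (median 72.1) on Control (-0.25 ± 0.11). Nipal1, a magnesium transporter, stood at 2.84 to 32.5 CPM (median 14.6) on Medium Protein and 4.57 to 32.97 CPM (median 20.7) on Control (-0.43 ± 0.17). In the growth hormone and IGF1 list 1 of 17 genes lay past that cutoff, Igfbp4, which holds IGF1 in the blood (-0.10 ± 0.046). In the clock list it was 1 of 21, the nuclear receptor Rora (-0.093 ± 0.044), and in the endoplasmic reticulum stress list 1 of 22, the sensor Atf6 (-0.12 ± 0.057). Among 18 endothelial markers it was Emcn, a surface mucin, with 1.60 to 2.87 CPM (median 2.02) on Medium Protein and 1.01 to 2.81 CPM (median 1.86) on Control (0.29 ± 0.13). None of 36 interferon genes, 20 cell cycle genes, 21 stellate and matrix markers, 9 cholangiocyte markers, 12 T and NK cell markers or 7 red blood cell markers had an unadjusted p below 0.05 in the pooled comparison. The red blood cell list differed by sex: in males 6 of 7 lay below 0 with a median of -0.464 and 2 were lower at an unadjusted p below 0.05, and in females 6 of 7 lay above 0 with a median of 0.111. Its male-minus-female median was -0.592, with 2 of 7 at an unadjusted interaction p below 0.05. Its part in the male differences was not tested.

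The sexes were then taken apart, with the 4 groups of animals fitted together. Males had 1 called gene (0.00561% of those tested) and 870 at an unadjusted p below 0.05 (4.88%). Females had 0 called and 629 (3.53%), and limma-voom also called 0. The male and female differences were unrelated across genes (Pearson r = -0.003 over 17812 genes, which are not independent replicates), with the same sign in 49.7%. The test of the difference between the sexes called 0 genes, with a smallest adjusted p of 0.386 and 720 genes (4.04%) at an unadjusted p below 0.05. Sex differences in the response below are therefore descriptions that did not pass this test.

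The gene called in males was Prox1 (ENSMUSG00000010175), the homeobox factor that sets hepatocyte and lymphatic endothelial identity. It stood at 142 to 185 CPM (median 162) in Medium Protein males, against 195 to 219.7 CPM (median 217) in Control males, and the groups did not overlap. In females it stood at 231 to 252 CPM (median 238) on Medium Protein, against 221 to 257 CPM (median 236) on Control, and the groups overlapped almost fully. Prox1 fell in males by 0.38 on the log2 scale (SE 0.063, adjusted p = 0.0278 by edgeR's quasi-likelihood test), and all 6 Medium Protein males lay below all 6 Control males. The share of all genes that separate in this way is not given here. For genes picked by a small p, groups without overlap are therefore no added evidence. The female difference was 0.013 ± 0.06. The interaction was -0.39 ± 0.085 (adjusted p = 0.386). Whether Prox1 passed depended on single animals, while its difference changed little: leaving out 1 male at a time gave -0.42 to -0.34. The adjusted p was above 0.05 in 8 of 12 cases and at most 0.153. The call was lost without Control male 2, 3, 4 or 5 or Medium Protein male 1, 2, 3 or 5, and it was kept without Control male 1 or 6 or Medium Protein male 4 or 6. Without Control male 4 and Medium Protein female 6 together the smallest adjusted p in males was 0.205. Scaling by library totals instead of TMM also lost the call, with a smallest adjusted p of 0.131 in males. In the fit of all 72 libraries the 1 gene called in males was Mup12. The Prox1 call was kept with RLE size factors, another scaling (adjusted p = 0.0269 by edgeR), and with a minimum of 1 CPM (0.0249 by edgeR). It was also kept with limma-voom (adjusted p = 0.0131).

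Further genes with a small p in 1 sex or in the interaction are described without a call, and they were chosen after their values were seen. Chsy1, which builds chondroitin chains, had 8.18 to 9.41 CPM (median 8.63) in Medium Protein males, against 6.05 to 7.40 CPM (median 6.19) in Control males, without overlap. In females it had 5.28 to 5.86 CPM (median 5.66) on Medium Protein, against 5.47 to 7.41 CPM (median 5.86) on Control. Its differences were 0.41 ± 0.078 in males (adjusted p = 0.137) and -0.10 ± 0.078 in females, with an interaction p of 9.21e-05. Magi1, a scaffold of tight junctions, showed its difference in females, at 36.1 to 41.6 CPM (median 38.8) on Medium Protein and 44.1 to 49.4 CPM (median 46.96) on Control, without overlap (-0.26 ± 0.052). In males it was 0.10 ± 0.053, and the interaction p was 5.36e-05.

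Meg3 and Rian are noncoding RNAs of an imprinted cluster and are expressed from the maternal chromosome. Meg3 and Rian had higher medians in males than in females, and their diet difference lay in males. Meg3 (ENSMUSG00000021268) had 0.554 to 3.30 CPM (median 1.88) in Medium Protein males, against 1.16 to 7.45 CPM (median 5.46) in Control males. In females it had 0.247 to 0.874 CPM (median 0.651) on Medium Protein, against 0.298 to 0.780 CPM (median 0.616) on Control. The male groups overlapped in their range, and the difference was -1.41 ± 0.38 (adjusted p = 0.537), against 0.028 ± 0.46 in females. Rian had 0.734 to 2.81 CPM (median 1.75) in Medium Protein males, against 1.05 to 5.75 CPM (median 3.403) in Control males (-1.02 ± 0.34). Of 6 genes tested in this imprinted list 3 had an unadjusted p below 0.05 in the pooled comparison, all lower, and 0 passed. Mup12 had a male difference of -5.85 ± 1.32 that came with 1 animal. The Medium Protein males held 3.90 to 7.77 CPM, while Control male 4, the library with most ribosomal-like RNA, held 2016 CPM and the other 5 Control males held 2.65 to 9.03 CPM.

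**Figure D4:**
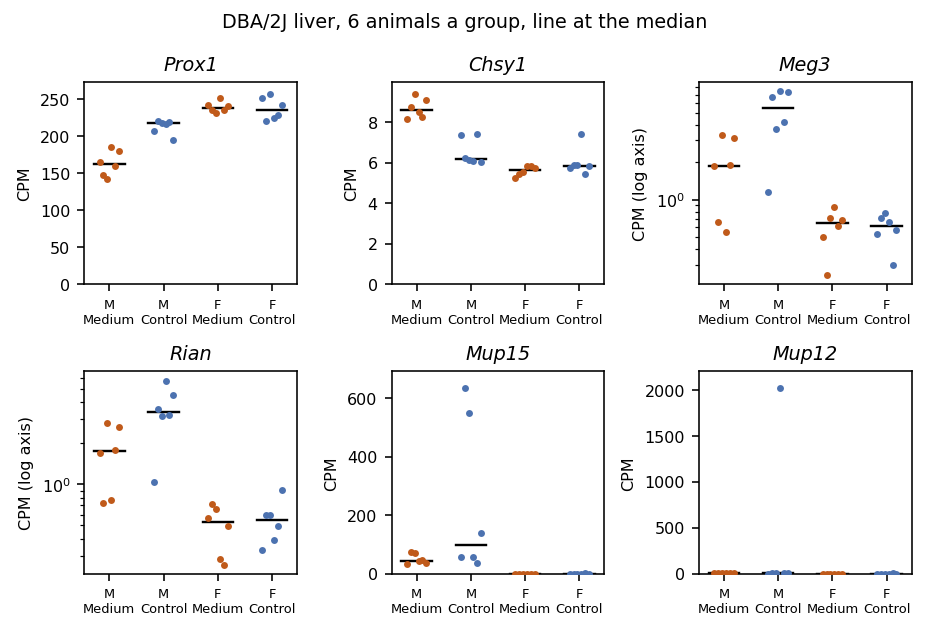
CPM (y axis, log scale for Meg3 and Rian) of 6 genes in each of the 24 DBA/2J livers, with Medium Protein left of Control within males and within females; points are animals and lines are group medians. Prox1 and Chsy1 separate the diets in males and overlap in females, and the single high Mup12 value is Control male 4.

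The acute phase list, secreted proteins that the liver makes in inflammation, lay on opposite sides in the sexes. In males 28 of 33 genes lay above 0 (median 0.172) and 7 had an unadjusted p below 0.05, all higher. In females 26 of 33 lay below 0 (median -0.121) and 3 had an unadjusted p below 0.05, all lower. In the test of the difference 10 of 33 had an unadjusted p below 0.05, all higher in males relative to females, and the smallest adjusted p was 0.914. Saa1, a serum amyloid A, had 14.4 to 919 CPM (median 18.8) in Medium Protein males, against 6.11 to 71.1 CPM (median 25.9) in Control males. In females it had 5.44 to 17.3 CPM (median 12.3) on Medium Protein, against 6.19 to 118 CPM (median 73.7) on Control. Saa2, its neighbour and close copy, had 2.48 to 866 CPM (median 3.64) in Medium Protein males, against 1.29 to 27.1 CPM (median 4.75) in Control males. In females it had 2.96 to 11.8 CPM (median 6.64) on Medium Protein, against 3.76 to 76.2 CPM (median 25.3) on Control. The male maximum of both genes, and of Lcn2, an iron-scavenging lipocalin (93.9 CPM), came from Medium Protein male 6, the library with the second largest share of ribosomal-like RNA. Without that library the male median of the list was 0.060. The group medians of Saa1 and of Saa2 were lower on Medium Protein in both sexes.

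Lbp, which presents bacterial lipopolysaccharide, had no such single value, at 61.2 to 88.8 CPM (median 75.4) in Medium Protein males, against 53.7 to 73.3 CPM (median 61.6) in Control males (0.26 ± 0.087). In females Lbp had 92.9 to 108 CPM (median 97.2) on Medium Protein, against 96.8 to 119 CPM (median 105) on Control (-0.11 ± 0.087).

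Fatty acid oxidation genes lay the other way. In males 35 of 40 lay below 0 (median -0.097) and 5 had an unadjusted p below 0.05, all lower. In females 32 lay above 0 (median 0.066), with 2 higher and 1 lower at that cutoff. Cpt1a, the gate of fatty acids into mitochondria, had 587 to 908 CPM (median 734) in Medium Protein males, against 753 to 953 CPM (median 879) in Control males (-0.24 ± 0.084). In females it had 723 to 894 CPM (median 827) on Medium Protein, against 715 to 856 CPM (median 778) on Control (0.061 ± 0.084). Ppara, the receptor that drives these genes, had 149 to 235 CPM (median 183) in Medium Protein males, against 193 to 252 CPM (median 214) in Control males (-0.23 ± 0.11), and 0.12 ± 0.11 in females. Leaving out 1 animal at a time kept the sign of both medians, from -0.146 to -0.058 in males and from 0.036 to 0.098 in females. No member passed in either sex.

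The Low Protein diet, fed to 12 further DBA/2J mice, places Medium Protein on a scale of 3 diets. In a fit of all 36 DBA/2J livers, Low Protein against Control called 279 of 18269 genes (1.53%), 156 higher (0.854%) and 123 lower (0.673%). Low Protein against Medium Protein called 18 (0.0985%), 13 higher (0.0712%) and 5 lower (0.0274%). Medium Protein and Low Protein share their Control animals, so the values of both are given side by side and their likeness is not tested. The xenobiotic list had a median of 0.023 on Medium Protein and 0.159 on Low Protein against Control, with 0 and 3 of 34 genes called. The median of Cyp3a11 was 619 CPM on Control, 943 CPM on Medium Protein and 1289 CPM on Low Protein. Cyp3a11 rose on Low Protein against Control by 1.02 ± 0.16 (adjusted p = 0.000296 by edgeR's quasi-likelihood test). Ces2a had medians of 133, 155 and 187 CPM on Control, Medium Protein and Low Protein, and rose on Low Protein by 0.53 ± 0.08 (adjusted p = 0.000262). Ces2g rose by 0.43 ± 0.065 (adjusted p = 0.000262) and Ces2e by 0.45 ± 0.10 (adjusted p = 0.01).

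Serpina12, which encodes the adipokine vaspin, followed the same order. It had medians of 25.5, 28.5 and 63.1 CPM on Control, Medium Protein and Low Protein, with 0.79 ± 0.27 for Medium Protein and a rise of 1.67 ± 0.26 on Low Protein (adjusted p = 0.000262). Adgrg2, an adhesion receptor, had 0.42 ± 0.15 on Medium Protein and rose by 1.00 ± 0.15 on Low Protein (adjusted p = 0.000262). Among genes with a small p on Medium Protein, Atox1 rose on Low Protein by 0.27 ± 0.057 (adjusted p = 0.01), and Taok3 (-0.33 ± 0.046, adjusted p = 0.000181), Bod1l (-0.17 ± 0.039, 0.0169) and Zscan26 (-0.13 ± 0.027, 0.00704) fell on Low Protein. Their medians on Medium Protein were near those on Low Protein: Atox1 had 28.5, 32.3 and 32.2 CPM and Zscan26 64.7, 59.8 and 58.4 CPM on Control, Medium Protein and Low Protein. In the same order Cnst had 16.2, 13.5 and 13.3 CPM and Ccdc141 29.3, 22.6 and 25.5. The Mup15 medians of 18.8, 17.3 and 15.2 CPM do not describe typical animals, since 5, 6 and 5 of the 12 libraries held 0 counts. Fpr2 had 0.831, 1.04 and 0.974 CPM and Tcaf1 2.91, 3.61 and 3.48. All these genes were picked by their p against the same Control animals, so their Low Protein values are not independent of that choice.

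On Low Protein 3 of 9 urea cycle genes rose against Control. Arg1 had medians of 604, 614 and 841 CPM on Control, Medium Protein and Low Protein, and rose on Low Protein by 0.56 ± 0.12 (adjusted p = 0.0109). Cps1 rose by 0.48 ± 0.13 (adjusted p = 0.0409), and Slc25a15 rose against Control by 0.42 ± 0.069 (adjusted p = 0.000499) and against Medium Protein by 0.32 ± 0.068 (adjusted p = 0.0463). All 25 cholesterol genes lay above 0 on Low Protein against Control, 4 of them called, with a median of 0.397. All 25 lay above 0 against Medium Protein, 2 of them called, with a median of 0.579, while on Medium Protein against Control their median was -0.137. Dhcr7 had medians of 15.1, 15.00 and 23.9 CPM and rose against Medium Protein by 0.71 ± 0.12 (adjusted p = 0.00281). Hsd17b7, of the same pathway, had medians of 67.6, 62.03 and 85.3 CPM and rose by 0.54 ± 0.086 (adjusted p = 0.00163).

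Among genes called between Low Protein and Medium Protein was Ugt1a10, a glucuronosyltransferase whose locus shares exons with its neighbours, so that its reads are hard to assign. It had medians of 8.08, 7.89 and 18.1 CPM on Control, Medium Protein and Low Protein and rose by 1.08 ± 0.16 (adjusted p = 0.00127). Snora73a, a small nucleolar RNA, rose by 0.45 ± 0.10 (adjusted p = 0.0463). Sult1e1, the estrogen sulfotransferase, had medians of 3.399, 3.57 and 0.481 CPM and was lower on Low Protein than on Medium Protein, with a log2 difference of -1.78 ± 0.31 (adjusted p = 0.00548). Ifi27l2b, an interferon-inducible gene, had -0.86 ± 0.18 (adjusted p = 0.0363). Meg3 and Rian fell on Low Protein against Control, with log2 differences of -1.69 ± 0.36 for Meg3 (adjusted p = 0.00999) and -1.48 ± 0.31 for Rian (adjusted p = 0.0081).

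**Figure D5:**
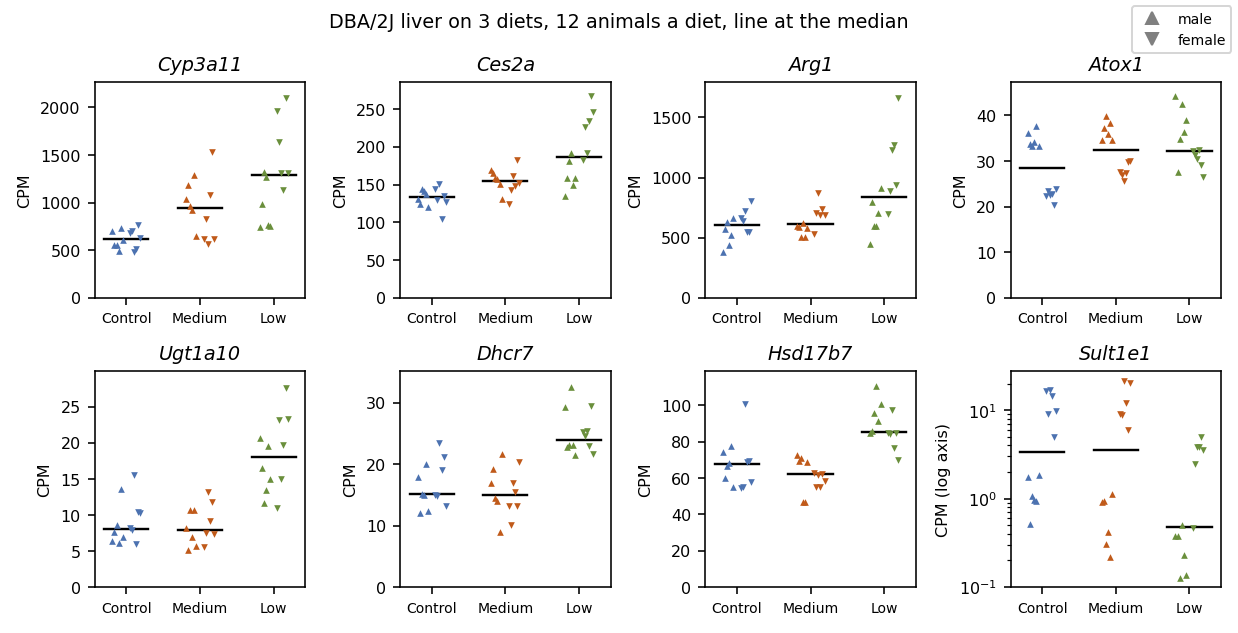
CPM (y axis, log scale for Sult1e1) of 8 genes in the 36 DBA/2J livers on Control, Medium Protein and Low Protein, from left to right; points are animals, with males and females marked, and lines are diet medians. The medians of Cyp3a11 and Ces2a on Medium Protein lie between those on Control and Low Protein, while those of Arg1, Ugt1a10, Dhcr7, Hsd17b7 and Sult1e1 lie near Control.

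The same contrast in the other strain used other animals. In C57BL/6J, Medium Protein against Control called 1 of 17590 genes (0.00569%), with 857 (4.87%) at an unadjusted p below 0.05. This was Moxd1, a monooxygenase-like gene, with 5.60 ± 0.85 (adjusted p = 0.0104 by edgeR's quasi-likelihood test). With limma-voom Moxd1 was not called in C57BL/6J, and the 1 gene called was Mup18 (2.72, adjusted p = 0.00269), a further major urinary protein with near-identical copies. In DBA/2J livers Moxd1 ran from 0 to 43.2 CPM on Medium Protein and from 0 to 54.3 CPM on Control, with an estimate of -0.043 ± 0.79. The test of the difference between the strains called 0 of 18809 genes with edgeR, with 786 (4.18%) at an unadjusted p below 0.05, and 2 with limma-voom. Cyp3a11 had 0.61 ± 0.14 in DBA/2J against -0.21 ± 0.16 in C57BL/6J, and the difference between the strains had an unadjusted p of 0.000595 and an adjusted p of 0.7. Chosen after their values were seen, 2 genes had the same sign in C57BL/6J as in DBA/2J: Trib3 had -0.71 ± 0.25 in C57BL/6J and mt-Cytb -0.18 ± 0.075, both at an unadjusted p below 0.05 there. Across 16995 genes the differences of the strains were nearly unrelated (Pearson r = 0.037).

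C57BL/6J mice on Low Protein share no animal with the DBA/2J comparison, and their contrast with Control called 1071 of 18284 genes, 473 higher and 598 lower. Of the 455 higher genes that were tested in DBA/2J, 22 (4.84%) were higher and 2 (0.44%) lower on Medium Protein at an unadjusted p below 0.05, against 2.36% and 1.84% of all genes. Of the 587 lower genes, 1 (0.17%) was higher and 20 (3.41%) were lower. Above 0 lay 62% of the higher list and 42.2% of the lower list, and the medians were 0.023 and -0.012. Members at that cutoff included Cyp3a11, Ces2g, Adgrg2, Saa3 and Mogat1 among the higher and mt-Cytb, mt-Nd2, Ugt2b1 and Igfbp4 among the lower genes. Saa3, an acute phase gene of macrophages and fat, had 0.944 to 4.52 CPM (median 1.69) on DBA/2J Medium Protein and 0.481 to 2.17 CPM (median 1.49) on DBA/2J Control (0.77 ± 0.27). Across 17278 genes the correlation of these effects was weak (Pearson r = 0.058), and the list is described by its counts alone.

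The authors' deposited table tests the sexes apart and covers 17575 genes. In it 0 genes had an adjusted p below 0.05 for DBA/2J males or females on Medium Protein against Control, with 598 at an unadjusted p below 0.05 in males and 508 in females. The smallest adjusted p in the authors' deposited table was 0.258 in males and 0.540 in females. By the authors' test Prox1 had a log2 difference of -0.39 in males, with an unadjusted p of 0.00374 and an adjusted p of 0.9999. Atox1 had 0.31 in females by that test, with an unadjusted p of 0.000831 and an adjusted p of 0.9999.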

How the data were processed

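Poly(A)-selected, stranded libraries were sequenced from liver RNA of 72 mice, over 2 lanes that were merged, per the labels' protocols. The authors deposited a table of expected counts for 51912 genes, estimated with RSEM per the submitters' processing notes, which also name R version 3.4.3, edgeR and limma. Aligner, genome build and quality filters were not given in the sources used here. A second table deposited by the authors holds log2 fold changes with p-values, adjusted p-values and an F statistic, a score per gene over all comparisons. Its p-values were counted, and the score was not used. Of the deposited expected counts 11.6% were not whole, and all were rounded. Each library has a title of its own, and 2 DBA/2J Control males carry the number 11 with different letters, whose meaning the labels do not give. The p-values measure the spread between these libraries.

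Genes were kept by edgeR's expression filter and scaled by TMM. The main test was edgeR 4.0.16 quasi-likelihood (R 4.3.3) with sex and diet as terms over 24 libraries, with Benjamini-Hochberg adjustment and calls below 0.05. The standard error is the absolute log2 difference divided by the square root of F, and intervals cover 95%. The sexes and their interaction came from 4 group means, Low Protein from 36 DBA/2J libraries. CPM in the text are TMM-scaled. Summed marker levels and principal components were tested by exact permutation of diets within sex, two-sided. Alternatives were limma-voom 3.58.1, DESeq2 1.42.0, a test against a 1.2-fold difference, other scalings, filters, designs and leaving out each animal. Scripts were tested on simulated data. Library totals ran from 26.9 to 36.3 M counts.

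Genes named were the 10 smallest p under the limits given in the text, genes called in the other contrasts, the members of each list with the smallest p, and 12 genes always shown (Asns, Fgf21, Igf1, Igfbp1, Cyp7a1, Cps1, Psat1, Pck1, Meg3, Elovl3, Cyp3a11 and Arg1). Genes added after their values were seen were Ces2e, Ces2g, Cyp3a25, Ugt2b1, mt-Nd2, Chsy1, Magi1, Rian, Mup12, Saa1, Saa2, Lbp, Cpt1a, Ppara, Serpina12 and Adgrg2. The comparison and the 40 gene lists were chosen with earlier results of these data known. Of 922 list symbols 919 were matched to the table. Promoter windows came from RefSeq by symbol. Some items are not reported here.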

Additional observations from a re-analysis of the deposited data

Results flagged for a closer look

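Within each of the 4 groups of 6 animals, the highest and lowest CPM of 79 genes were compared with the nearest other animal by Dixon's ratio at its 95% critical value. Of 316 gene and group pairs 28 held such a value, where chance gives about 1 in 20 for normally distributed values. All 28 lay on the high side of their group, and the shape of the CPM values was not tested.

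Medium Protein female 6 stood apart for the Y-linked genes Ddx3y (2.80 CPM), Eif2s3y (0.839), Kdm5d (0.681) and Uty (0.760), all far below the male levels. Medium Protein male 6 stood apart for the acute phase genes Saa1 (919 CPM), Saa2 (866), Saa3 (4.52) and Lcn2 (93.9). Control male 4 stood apart for Mup12 (2016 CPM), and Control female 5 for Mup12 (3.11) and Mup15 (1.79). Control female 3 stood apart for the lipid genes Fads2 (323 CPM), Hsd17b7 (101) and Ppara (186), and Control female 2 for the fasting genes Igfbp1 (158) and Pck1 (4229). Medium Protein female 5 stood apart for Igfbp4 (728 CPM) and Sdc1 (305).

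Medium Protein male 2 held 54.4 CPM of Fgf21 and Medium Protein male 4 held 21.4 CPM of Trib3. Medium Protein female 1 held 3.99 CPM of Adgrg2 and 31.1 CPM of Snora73a, and Medium Protein female 4 held 2.85 CPM of Emcn. Control male 1 held 3.10 CPM of Ccr2 and 0.523 CPM of S100a9, and Control male 5 held 13.6 CPM of Ugt1a10. Control female 1 held 39.1 CPM of Plin4, and Control female 4 held 7.41 CPM of Chsy1.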

How the results depend on the processing

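The pooled comparison called 0 genes under every scaling, filter, design and tool tried and without each of the 24 animals in turn. Genes at an unadjusted p below 0.05 ran from 462 without the sex term to 909 without Control female 2, against 749 in the main test. Apart from these, the fit without a filter had 1943 of 34285 genes. A test against a 1.2-fold difference instead of 0 had 126 of 17812 and also called 0. With library totals the median of all genes was 0.020. Counts that moved were those with few calls. In males 0 genes were called with library totals and 0 without Control male 4 and Medium Protein female 6, an alternative chosen after seeing the data. Leaving out 1 animal gave 0 to 3 in males (main 1, with 3 without Medium Protein male 4), 0 to 1 in females and 0 to 1 for the interaction with sex (main 0 each). Females had 1 with a minimum of 1 CPM (Atox1, adjusted p = 0.0329) and 1 with all 72 libraries (Fcgbp, 0.02). With all 72 libraries Low Protein against Medium Protein had 8 (main 18), C57BL/6J had 0 (main 1), and the 1 gene called in males was Mup12. The strain difference had 2 with limma-voom.

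For single genes 1097 alternative values kept their sign and 23 reversed, all without a call. Moxd1 (main -0.043) had 0.0035 with library totals, 0.46 with DESeq2, 1.08 with 4 group means, 1.06 with 72 libraries and -0.61 to 0.79 without 1 animal. Asns (main 0.060) had -0.017 with limma-voom, -0.13 without the sex term, -0.056 without the 2 libraries and -0.18 to 0.24 without 1 animal. Saa1 (main 0.015) had -0.68 with limma-voom, -0.019 with DESeq2, -0.021 with 4 group means, -0.023 with 72 libraries, -0.027 without the 2 libraries and -1.62 to 0.35 without 1 animal. Saa2 had -0.82 with limma-voom and -1.92 to 1.40 without 1 animal. At the lowest of these values edgeR gave Saa1 an unadjusted p of 0.000872 (adjusted p = 0.713). It gave Saa2 an unadjusted p of 0.000412 (adjusted p = 0.628). Psat1 had 0.024 with limma-voom and -0.24 to 0.039 without 1 animal, and Sult1e1 0.046 without the sex term. Without 1 animal Lcn2 ran from -0.35 to 1.04, Ugt1a10 from -0.14 to 0.020 and Fgf21 from -0.16 to 0.079. The cause of these moves was not tested.

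No paired analysis was run. No title number is shared between the diets of a sex, and the labels do not give what the numbers and letters stand for. In DBA/2J females, consecutive title numbers fall in successive runs that each hold Control, Medium Protein and Low Protein. Whether these runs mark a block is not given, and a block by number was not fitted. Leaving out libraries with over 5% ribosomal-like RNA was not run, since none reached it. For most genes the interval lay within a 1.5-fold difference, but Asns, Psat1, Cd79a and Mogat1 lay near the limit of detection.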
